A study of Mus musculus with 14 samples.

Results

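The 33 genes described here are adipocyte genes of the mouse: coat proteins of the lipid droplet, secreted adipokines, enzymes of triglyceride synthesis and breakdown, lipid and glucose transporters, and receptors and heat-producing proteins of fat cells. They were chosen by symbol, with earlier results of these data known. All 33 were found among the 56691 gene IDs of the count table, and all 33 passed the low-count filter, as did 21619 IDs in all. Adipocytes store triglyceride in a large lipid droplet coated by perilipins and CIDE proteins, release fatty acids from it by stepwise lipolysis, and secrete hormones such as adiponectin and leptin. They arise from fibroblast-like progenitors under the nuclear receptor PPARγ and the C/EBP factors. In mouse skin and subcutaneous tissue, fat cells fill with lipid around birth.

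RNA of whole paws was sequenced after depletion of ribosomal RNA, from mice labelled null for Krt9 (Krt9-/-), which encodes a keratin of palm and sole epidermis, and from wild-type (WT) mice. There were 3 Krt9 null and 5 WT libraries of postnatal day 3 (P3), and 2 Krt9 null and 4 WT libraries of postnatal day 0 (P0). Both sexes were present in each of the 4 groups, and labels give a litter for each library, with replicates 2 and 3 of P3 WT from 1 litter. The labels give no strain, no description of the Krt9 allele and no treatment.

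Each library held between 28947715 and 41004173 counts. Levels are given as CPM, counts scaled to library size with TMM factors, with the SD over libraries. Krt9 itself was at 14.8 ± 9.16 CPM in P3 Krt9 null paws, against 53.9 ± 22.9 CPM in P3 WT paws. It was at 5.70 ± 0.543 CPM in P0 Krt9 null paws, against 4.97 ± 2.29 CPM in P0 WT paws, and neither difference was called, so genotype is used below as labelled. Replicate 4 of P0 WT, labelled female, had the X-inactivation transcript Xist at 0.181 CPM. The other libraries labelled female had 783.3 to 900.2 CPM, so Xist goes against that label. Its Y-linked gene Ddx3y was at 0.155 CPM, against 69.7 to 128.2 CPM in the libraries labelled male, which does not go against it. Results with P0 WT are therefore also given without replicate 4. By the names of their columns, the libraries form 2 alphabetical runs of 8 and 6, called runs A and B here, and the log2 ratio of Col1a1 to Col1a2 was 0.329 to 0.461 in run A and -0.128 to 0.0832 in run B. Run A holds replicate 2 of P3 Krt9 null, replicates 2, 3 and 4 of P3 WT, replicate 1 of P0 Krt9 null and replicates 1, 2 and 3 of P0 WT.

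The 6 genes that define adipocytes best here, Adipoq, Plin1, Cidec, Lep, Retn and Cfd, were detected in the paws, at a low level. Their summed level was 23.4, 27.1 and 8.32 CPM in the P3 Krt9 null libraries and 32.1, 31.3, 14.4, 27.8 and 13.6 CPM in the P3 WT libraries. On P0 it was 3.10 and 7.31 CPM in the Krt9 null libraries, and 0.575, 6.96, 0.750 and 1.53 CPM in the WT libraries. All P3 libraries lay above all P0 libraries. In P0 WT replicate 1, 4 of the 6 genes were at 0 counts, and at most 1 of the 6 was at 0 in any P3 library. In whole paws, fewer adipocytes and less of a transcript per adipocyte cannot be told apart.

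The start regions of 5 genes that differed between the days in WT paws, as the next paragraphs describe, are shown because they carry the binding motifs for which adipocyte promoters are known. The window is the 250 bases before the annotated start, from the RefSeq promoter table of build GRCm38.p6, read 5′ to 3′ on the gene's strand. Capitals mark each match on either strand of the C/EBP motif TTGCNNAA or of AGGTCA, the core that PPARγ and its partner RXR bind in pairs. Plin1, perilipin 1, lies at chr7:79732777-79733026 on the minus strand. Cidec, a droplet fusion protein, has 2 listed starts, of which the one at chr6:113434765-113435014 on the minus strand is shown, since the other window holds neither motif. Lep, leptin, lies at chr6:29059971-29060220 on the plus strand. Adig, adipogenin, lies at chr2:158502362-158502611 on the plus strand. For Pparg, the most downstream of its 3 listed starts is shown, at chr6:115421816-115422065 on the plus strand.
Plin1: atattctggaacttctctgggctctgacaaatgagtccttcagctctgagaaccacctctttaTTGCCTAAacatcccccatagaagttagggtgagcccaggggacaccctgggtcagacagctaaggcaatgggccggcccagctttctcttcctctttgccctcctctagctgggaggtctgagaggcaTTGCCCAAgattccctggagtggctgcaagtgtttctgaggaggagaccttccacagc
Cidec: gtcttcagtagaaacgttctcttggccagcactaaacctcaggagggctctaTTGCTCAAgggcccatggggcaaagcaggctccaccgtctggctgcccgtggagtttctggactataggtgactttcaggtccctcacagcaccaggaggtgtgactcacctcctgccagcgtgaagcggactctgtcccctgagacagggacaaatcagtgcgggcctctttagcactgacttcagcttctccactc
Lep: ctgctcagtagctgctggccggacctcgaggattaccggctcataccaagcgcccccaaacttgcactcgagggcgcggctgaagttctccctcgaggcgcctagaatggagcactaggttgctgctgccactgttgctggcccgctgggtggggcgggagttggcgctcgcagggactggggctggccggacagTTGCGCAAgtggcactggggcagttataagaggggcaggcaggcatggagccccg
Adig: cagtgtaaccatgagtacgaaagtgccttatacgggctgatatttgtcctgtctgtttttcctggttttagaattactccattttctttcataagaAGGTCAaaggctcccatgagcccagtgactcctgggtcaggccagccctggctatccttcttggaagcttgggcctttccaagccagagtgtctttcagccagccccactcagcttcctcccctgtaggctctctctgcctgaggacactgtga
Pparg: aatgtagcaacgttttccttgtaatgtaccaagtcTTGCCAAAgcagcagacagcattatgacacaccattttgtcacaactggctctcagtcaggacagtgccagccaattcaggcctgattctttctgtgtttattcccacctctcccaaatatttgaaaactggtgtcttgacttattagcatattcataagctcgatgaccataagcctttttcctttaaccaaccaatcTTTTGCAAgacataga
The C/EBP matches begin 187 and 58 bases before the start of Plin1, 198 before Cidec, 55 before Lep and 215 and 16 before Pparg. In Lep the match reads as the motif on both strands. The AGGTCA of Adig begins 154 bases before the start. Of the 29 promoters listed for 20 of the 33 genes, 4 (13.8%) held the C/EBP motif, against 9.56% of all 32851 promoters, and 8 (27.6%) held AGGTCA, against 14% of all. These 8 windows belong to 6 genes, and those of Aqp7 overlap and share a match. These windows were chosen after the values were seen, and a match describes the letters only. The listed starts of Adipoq, Pck1 and Pnpla2 held neither motif.

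**Figure D1:**
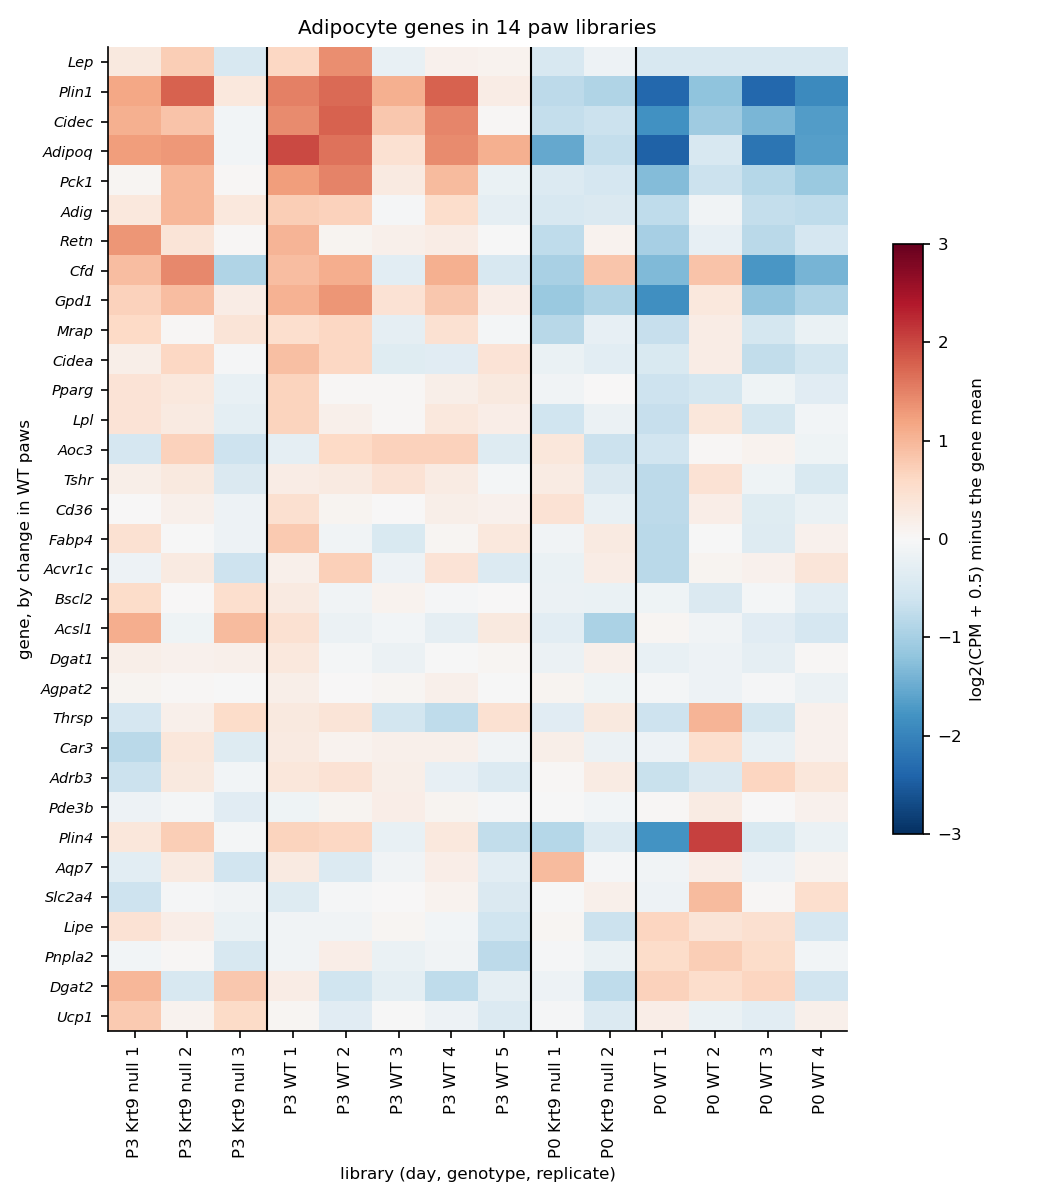
Level of each of the 33 genes in the 14 libraries, as log2(CPM + 0.5) minus the gene's mean over the libraries, with genes ordered by their P3 over P0 difference in WT paws and black lines between the groups. Lep, Plin1, Cidec, Adipoq and Pck1 are mostly above their means in both P3 groups and below them in both P0 groups, and Plin4 stands out in P0 WT replicate 2 at 24.7 CPM.

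Per kilobase of exon, Car3 was the most abundant member on both days. This cytosolic carbonic anhydrase, abundant in fat and also in slow muscle, was at 99.7 ± 8.84 CPM per kb in P3 WT paws and 98.6 ± 23.8 CPM per kb in P0 WT paws. Dgat2, which adds the last fatty acid of a triglyceride, came next at 40.9 ± 11.2 CPM per kb in P3 WT paws and 66.7 ± 22.2 CPM per kb in P0 WT paws. The fatty acid translocase Cd36, the fatty acid carrier Fabp4 and the lipoprotein lipase Lpl followed, at 32.2 ± 4.29, 23.1 ± 7.69 and 19.0 ± 3.41 CPM per kb in P3 WT paws. All 5 are also used by other cells of a paw (muscle, endothelium, macrophages or epidermis). Adipoq, which encodes adiponectin and marks adipocytes, ranked 11 of 33 in P3 WT paws at 7.47 ± 2.87 CPM per kb, against rank 21 in P0 WT paws at 0.706 ± 0.729 CPM per kb. In Krt9 null paws its rank was 12 on P3 and 18 on P0.

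In WT paws, 8 of the 33 genes rose between the days and 1 fell. The call was an adjusted p under 0.05 from edgeR's quasi-likelihood test with Benjamini-Hochberg adjustment over all genes tested. Those that rose were Plin1, Cidec, Pck1, Adipoq, Gpd1, Adig, Lep and Pparg, and Pnpla2 fell. Among them, Adig and Lep passed the low-count filter only through P3 libraries, where they were high. Of all genes tested, 8.49% were called higher and 8.07% lower. The 33 genes were chosen with earlier results of these data known, so comparisons with all genes are a description only. The median log2 fold change, P3 over P0, was 0.44 over the 33 genes, also with Lep at its lower bound given below, and -0.0096 over all genes. The fold change was positive for 25 members and negative for 8, and 18 members had an unadjusted p under 0.05, against 30.7% of all genes. In 8 members every P3 WT library was above every P0 WT library, against 8.96% of all genes, and in 0 members every one was below, against 7.73%. These 8 were Plin1, Cidec, Pck1, Adipoq, Lep, Retn, Pparg and Agpat2.

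**Figure D2:**
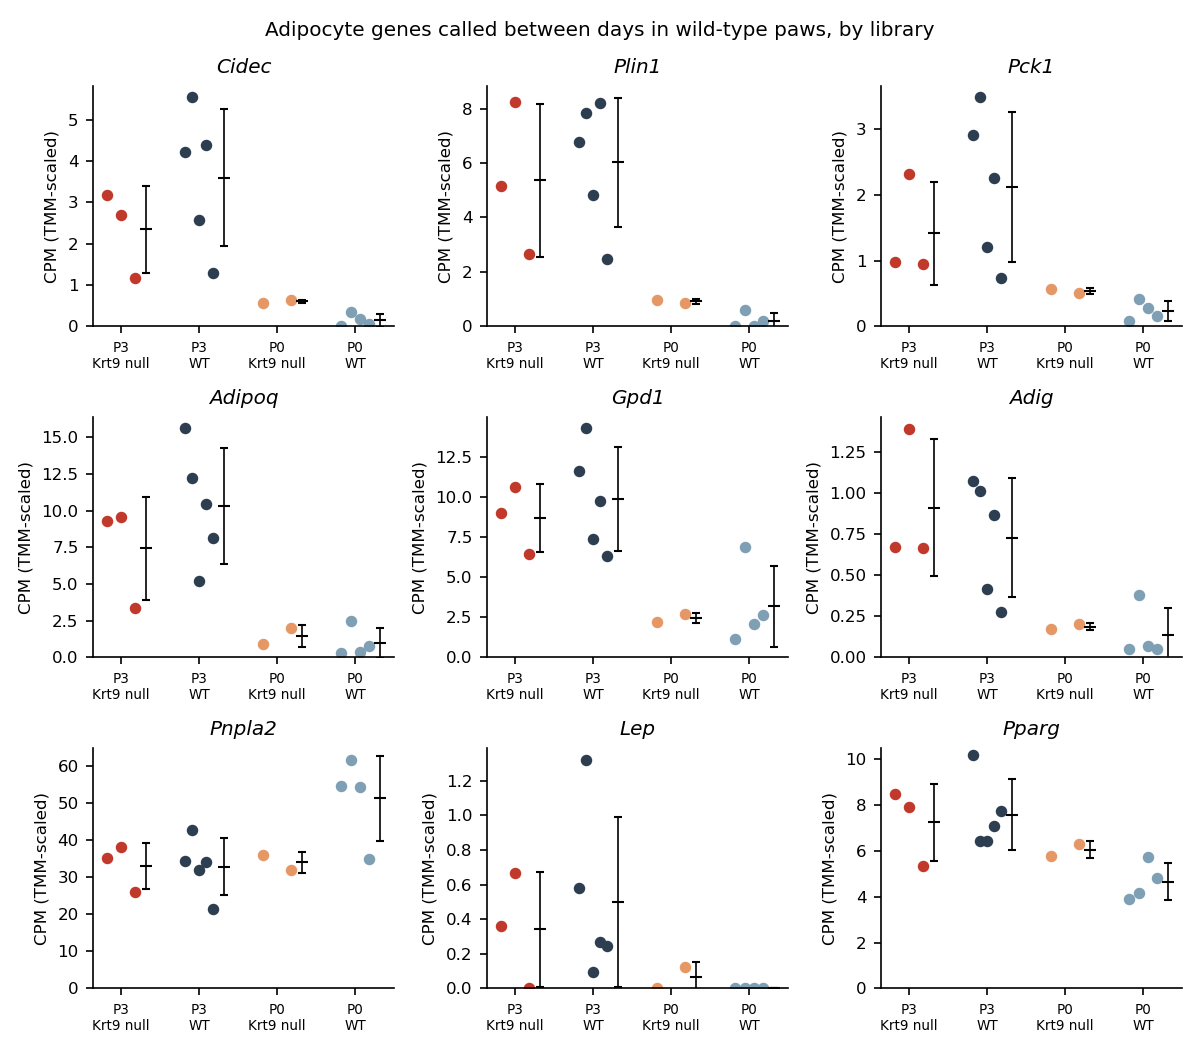
Level (CPM after TMM scaling) of the 9 genes called between the days in WT paws, with 1 point per library in replicate order and the mean ± SD beside each group. Plin1, Cidec, Pck1, Adipoq, Lep and Pparg show no overlap between P3 WT and P0 WT, and Pnpla2 is at 32.9 ± 7.69 CPM in P3 WT and 51.3 ± 11.5 CPM in P0 WT.

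Among the droplet proteins, Plin1 and Cidec rose most. Plin1, which coats the droplet and gates access of lipases to it, was at 6.77, 7.84, 4.82, 8.21 and 2.47 CPM in the P3 WT libraries, against 0, 0.602, 0 and 0.181 CPM in the P0 WT libraries. The lowest P3 library was thus above the highest P0 library, and in 2 of the 4 P0 libraries no read was counted. The log2 fold change was 5.13 (SE 0.828, edgeR adjusted p = 0.00248). Cidec, which enlarges droplets by fusing them, was at 4.21, 5.54, 2.57, 4.39 and 1.30 CPM in the P3 WT libraries, against 0, 0.339, 0.179 and 0.0518 CPM in the P0 WT libraries. Again the groups did not overlap, and the log2 fold change was 4.71 (SE 0.707, edgeR adjusted p = 0.00133). Adig, which encodes the small adipocyte protein adipogenin, was at 1.07, 1.01, 0.412, 0.864 and 0.278 CPM in the P3 WT libraries, against 0.0523, 0.376, 0.0715 and 0.0518 CPM in the P0 WT libraries. P0 WT replicate 2 lay above P3 WT replicate 5, and the log2 fold change was 2.55 (SE 0.679, adjusted p = 0.0209). Adig passed the low-count filter only through P3 libraries, so its adjusted p is not independent of that filter.

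The other droplet proteins were not called in WT paws. Cidea, a fusion protein of brown adipocytes that sebaceous gland also makes, was at 9.35, 7.63, 3.62, 3.62 and 6.52 CPM in the P3 WT libraries, against 3.34, 5.68, 2.64 and 3.08 CPM in the P0 WT libraries, with overlap (log2 fold change 0.75, adjusted p = 0.133). Bscl2, the seipin that shapes new droplets at the endoplasmic reticulum, was at 56.9 ± 5.82 CPM in P3 WT and 46.9 ± 5.46 CPM in P0 WT (log2 fold change 0.27, adjusted p = 0.137). Plin4, a droplet coat protein that skeletal muscle also expresses, was at 3.12 to 9.22 CPM in P3 WT, against 24.7 CPM in P0 WT replicate 2 and 1.25 to 4.84 CPM in the other P0 WT libraries. Replicate 2 held 14720 CPM of summed skeletal muscle markers, against 4748 to 6139 CPM in the other P0 WT libraries. The log2 fold change of Plin4 was -0.071 with all libraries and 1.01 without P0 WT replicate 2 (adjusted p = 0.179). The part of muscle in this value was not tested.

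Of the 4 adipokines, Adipoq and Lep rose in WT paws. Adipoq was at 15.6, 12.2, 5.17, 10.5 and 8.15 CPM in the P3 WT libraries, against 0.261, 2.45, 0.393 and 0.802 CPM in the P0 WT libraries. The groups did not overlap, and the log2 fold change was 3.61 (SE 0.641, edgeR adjusted p = 0.00402). Lep, the satiety hormone of fat, had 95 counts over the P3 WT libraries and 0 over the P0 WT libraries, at 0.578, 1.32, 0.0952, 0.266 and 0.247 CPM in the P3 WT libraries. It was at least 24.2-fold higher on P3, taking 3 counts over the P0 WT libraries together as the limit of a count of 0 (adjusted p = 0.0261). Of the 95 counts, 55 were in P3 WT replicate 2, and without that library the bound was 13.5-fold and the call was lost (adjusted p = 0.0518). That limit covers counting error only. Lep passed the low-count filter only through P3 libraries, as no P0 library held more than 5 counts. Its adjusted p is thus not independent of that filter. Retn, which encodes resistin, was at 1.51, 0.554, 0.603, 0.664 and 0.494 CPM in the P3 WT libraries, against 0, 0.339, 0.0715 and 0.207 CPM in the P0 WT libraries. Although these groups did not overlap, Retn missed the threshold (log2 fold change 2.39, SE 0.825, adjusted p = 0.0618). Cfd, the complement protease adipsin, was at 0.958 to 3.87 CPM in P3 WT, against 3.23 CPM in P0 WT replicate 2 and 0.107 to 0.314 CPM in the other P0 WT libraries, so that replicate 2 alone reached into the P3 range. Its log2 fold change was 1.89 (adjusted p = 0.236), and without P0 WT replicate 2 it was 3.46 (adjusted p = 0.037).

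Enzymes that supply the glycerol backbone of triglyceride rose in WT paws. Those that add fatty acids to it were not called by edgeR's test with all libraries and the low-count filter. Pck1, the enzyme of glyceroneogenesis in fat, was at 2.92, 3.49, 1.21, 2.26 and 0.741 CPM in the P3 WT libraries, against 0.0784, 0.414, 0.286 and 0.155 CPM in the P0 WT libraries. There was no overlap, and the log2 fold change was 3.22 (SE 0.586, edgeR adjusted p = 0.00315). Gpd1, which makes glycerol 3-phosphate from a glycolytic intermediate, was at 11.6, 14.3, 7.39, 9.77 and 6.30 CPM in the P3 WT libraries, against 1.15, 6.85, 2.07 and 2.61 CPM in the P0 WT libraries. Only P0 WT replicate 2 reached into the P3 range, and the log2 fold change was 1.76 (SE 0.443, adjusted p = 0.0179). The acyltransferases Agpat2, Dgat1 and Dgat2 and the acyl-CoA synthetase Acsl1 had log2 fold changes of 0.19, 0.20, -0.73 and 0.25, with adjusted p between 0.0857 and 0.495. DESeq2 called Dgat2 lower (adjusted p = 0.0343), and edgeR called it lower without P0 WT replicate 4 (log2 fold change -0.91, adjusted p = 0.0282). It was also called lower by edgeR with no low-count filter and with only the WT groups compared. Its direction differed between the runs, with log2 fold changes of -1.14 within run A and 0.40 within run B. In run B the only P0 WT library is replicate 4. Dgat2 was at 250.6, 224.9, 243.3 and 104.1 CPM in the P0 WT libraries and 91.0 to 180.9 CPM in P3 WT. Summed epithelial markers were 11360, 10440, 11240 and 6225 CPM in the P0 WT libraries and 6319 to 7874 CPM in P3 WT. The part of epithelial cells in the Dgat2 values was not tested. Agpat2 was higher in every P3 WT library than in every P0 WT library, at 21.1 ± 1.31 CPM in P3 WT and 18.4 ± 0.823 CPM in P0 WT (adjusted p = 0.228). Thrsp, a lipogenic protein responsive to thyroid hormone, was at 1.59 ± 0.735 CPM in P3 WT and 1.76 ± 1.30 CPM in P0 WT.

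Of the lipolysis genes, Pnpla2 fell. This gene encodes adipose triglyceride lipase, which takes the first fatty acid off a triglyceride and is also used by muscle. It was at 34.3, 42.8, 31.9, 34.2 and 21.3 CPM in the P3 WT libraries, against 54.5, 61.5, 54.3 and 34.8 CPM in the P0 WT libraries. P0 WT replicate 4 lay within the P3 range, and the log2 fold change was -0.67 (SE 0.181, edgeR adjusted p = 0.0222). Lipe, the hormone-sensitive lipase of the next step, was at 14.4 ± 2.34 CPM in P3 WT and 20.1 ± 6.17 CPM in P0 WT (log2 fold change -0.50, adjusted p = 0.0769). Pde3b, which ends the cAMP signal for lipolysis downstream of insulin, had a log2 fold change of -0.056. The skeletal muscle list was lower in WT paws on P3 as well: 5 of 16 markers fell, 0 rose, and the summed level was 2437 to 4031 CPM in P3 WT and 4748 to 14720 CPM in P0 WT. The part of muscle in the fall of Pnpla2 was not tested.

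Pparg, the receptor that drives adipocyte differentiation, rose too. It was at 10.2, 6.43, 6.44, 7.11 and 7.75 CPM in the P3 WT libraries, against 3.89, 4.17, 5.72 and 4.81 CPM in the P0 WT libraries, without overlap (log2 fold change 0.70, SE 0.202, edgeR adjusted p = 0.0307). The carriers and transporters were not called. Fabp4, Lpl and Cd36 had log2 fold changes of 0.44, 0.52 and 0.44, Aqp7, which exports glycerol, of -0.094, and the insulin-responsive glucose transporter Slc2a4 of -0.46, with adjusted p between 0.112 and 0.898. Lpl was at 199.2 ± 35.7 CPM in P3 WT and 143.3 ± 47.0 CPM in P0 WT, with overlap. Among receptors, Adrb3 (β3-adrenergic), Mrap (an accessory protein of the melanocortin receptors), Tshr (thyrotropin) and Acvr1c (the activin receptor ALK7) were not called. Mrap had the largest log2 fold change of these 4, 1.10, at 0.889 ± 0.352 CPM in P3 WT and 0.453 ± 0.276 CPM in P0 WT (adjusted p = 0.148). The amine oxidase Aoc3, shared with smooth muscle and endothelium, and Car3 had log2 fold changes of 0.47 and 0.060, with overlap. The uncoupling protein Ucp1, which lets brown fat mitochondria make heat, was near 0, at 0.193, 0.0241, 0.159, 0.0997 and 0 CPM in the P3 WT libraries, against 0.261, 0.0752, 0.0357 and 0.233 CPM in the P0 WT libraries.

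Plin1, Cidec, Pck1 and Adipoq were called with any 1 library left out and within run A alone. In run B the only P0 WT library is replicate 4, so a fold change there has no spread on P0. The log2 fold change was 5.58 for Plin1 and 3.66 for Adipoq in run A, and 3.89 and 3.23 in run B. Without P0 WT replicate 1 only these 4 remained called higher, without P0 WT replicate 3 only these 4 and Pparg, and without P0 WT replicate 4 there were 8 called higher and 3 lower. Pnpla2 lost its call without any one of P0 WT replicates 1, 2 and 3 and P3 WT replicate 5. Pparg lost its call without any one of P0 WT replicates 1 and 2 and P3 WT replicates 1, 4 and 5, and within either run alone. Lep lost its call without any one of P0 WT replicates 1, 2 and 3 and P3 WT replicate 2, and within run B. Without P0 WT replicate 2, 9 genes were called higher and 0 lower. The labels give each library a litter number but do not say whether equal numbers on P3 and P0 mark the same litter. With that number as a block, which left 2 residual degrees of freedom, 0 of the 33 genes were called in either direction, with 1 gene higher and 2 lower over all genes, and the log2 fold changes were 10.95 for Plin1 (adjusted p = 0.0724), 10.1 for Cidec (0.138), 5.11 for Pck1 (0.209) and 5.55 for Adipoq (0.194).

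**Figure D3:**
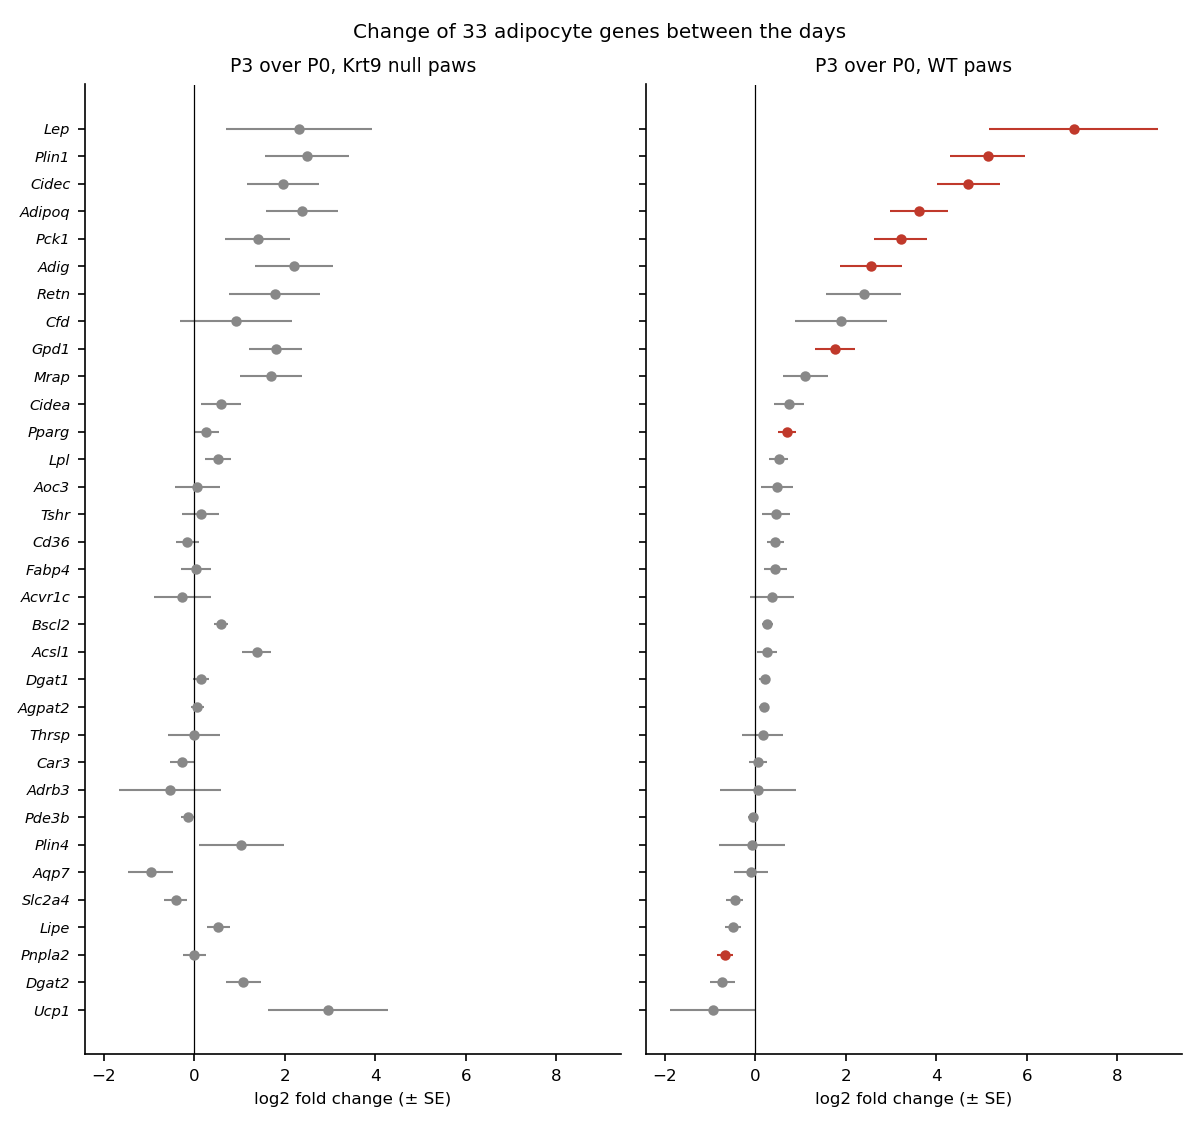
Log2 fold change of P3 over P0 with its SE for the 33 genes, in Krt9 null paws (left) and WT paws (right), ordered by the WT value, with red points for an edgeR adjusted p under 0.05. In WT paws 9 points are red and in Krt9 null paws none is, and the bars are wider in Krt9 null paws for most genes, which had 3 P3 and 2 P0 libraries, while the fitted value of Lep in WT paws is no bound.

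In Krt9 null paws none of the 33 genes was called between the days by edgeR's quasi-likelihood test, where 0.338% of all genes were called higher and 0.43% lower. At an unadjusted p under 0.05 there were 10 members, all with the higher value on P3, against 15.9% of all genes, and DESeq2 called 3 higher, Gpd1, Bscl2 and Acsl1, where it called 2.91% of all genes higher and 2.13% lower. The median log2 fold change was 0.53 over the 33 genes and -0.0082 over all genes, with 25 positive and 8 negative. In 12 members all P3 Krt9 null libraries lay above both P0 Krt9 null libraries, against 11.8% of all genes. These were Plin1, Plin4, Cidec, Cidea, Pck1, Adipoq, Gpd1, Bscl2, Acsl1, Ucp1, Mrap and Adig. In 1 member, Slc2a4, all lay below, against 13.8% of all genes.

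Plin1 was at 5.16, 8.25 and 2.67 CPM in the P3 Krt9 null libraries, against 0.976 and 0.857 CPM in the P0 Krt9 null libraries, with no overlap (log2 fold change 2.49, SE 0.927, edgeR adjusted p = 0.218). Cidec was at 3.18, 2.69 and 1.16 CPM in P3 Krt9 null, against 0.574 and 0.630 CPM in P0 Krt9 null (log2 fold change 1.97, adjusted p = 0.241). Adipoq was at 9.32, 9.58 and 3.37 CPM in P3 Krt9 null, against 0.918 and 1.99 CPM in P0 Krt9 null (log2 fold change 2.38, adjusted p = 0.182). In all these genes the lowest P3 library was replicate 3, and it still lay above both P0 libraries. Pck1 was at 0.976, 2.33 and 0.948 CPM in P3 Krt9 null, against 0.574 and 0.504 CPM in P0 Krt9 null. Gpd1 was at 9.01, 10.6 and 6.42 CPM in P3 Krt9 null, against 2.21 and 2.67 CPM in P0 Krt9 null (log2 fold change 1.80, adjusted p = 0.163). Adig was at 0.669, 1.39 and 0.667 CPM in P3 Krt9 null, against 0.172 and 0.202 CPM in P0 Krt9 null. For these 3 the P3 libraries also stood clear of both P0 libraries. Lep had 0.363, 0.665 and 0 CPM in P3 Krt9 null and 0 and 0.126 CPM in P0 Krt9 null, which overlap. Pparg was at 8.48, 7.92 and 5.34 CPM in P3 Krt9 null and 5.80 and 6.32 CPM in P0 Krt9 null, with replicate 3 of P3 below both P0 libraries (log2 fold change 0.27). Cidea was at 5.47, 7.62 and 4.60 CPM in P3 Krt9 null and 4.10 and 3.70 CPM in P0 Krt9 null. Ucp1 was at 0.641, 0.212 and 0.492 CPM in P3 Krt9 null, against 0.144 and 0 CPM in P0 Krt9 null, all of them low. Ucp1 passed the low-count filter only through P3 Krt9 null libraries, and Adig only through P3 libraries. Their separation between the days is thus not independent of that filter. Pnpla2 was at 33.1 ± 6.20 CPM in P3 Krt9 null and 34.0 ± 2.86 CPM in P0 Krt9 null.

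The smallest adjusted p in Krt9 null paws belonged to Acsl1, which activates long-chain fatty acids in fat and in other tissues. It was at 211.2, 91.2 and 192.4 CPM in the P3 Krt9 null libraries, against 80.4 and 51.3 CPM in the P0 Krt9 null libraries (log2 fold change 1.38, SE 0.318, edgeR adjusted p = 0.0648). Bscl2 was at 80.3, 55.6 and 78.7 CPM in P3 Krt9 null, against 48.3 and 48.1 CPM in P0 Krt9 null (log2 fold change 0.59, adjusted p = 0.0983). Dgat2 was at 307.5, 110.8 and 273.8 CPM in P3 Krt9 null, against 139.5 and 91.0 CPM in P0 Krt9 null (log2 fold change 1.08, adjusted p = 0.201). In all 3, P3 Krt9 null replicates 1 and 3 were high and replicate 2 was low, and replicate 2 is the P3 Krt9 null library of run A. Without replicate 2, Acsl1, Bscl2 and Dgat2 were called higher, with a log2 fold change of 1.64 for Acsl1 (adjusted p = 0.0109). Leaving it out also raised the share of all genes called higher to 1.78%, against 0.338% with all libraries. Within run A, Acsl1 had a log2 fold change of 0.29 and Dgat2 of -0.066, and within run B of 1.90 and 1.52. The part of the run in these values was not tested.

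Between genotypes on P3, 0 of the 33 genes were called by edgeR's quasi-likelihood test or by DESeq2, and the smallest adjusted p was 0.694, where 0.00463% of all genes were called in either direction. The median log2 fold change, Krt9 null over WT, was -0.17 over the 33 genes and -0.014 over all genes. Dgat2, Bscl2, Acsl1, Ucp1 and Lipe had an unadjusted p under 0.05, 5 in all, with the higher value in Krt9 null paws, against 6.67% of all genes. Only Ucp1 was higher in every P3 Krt9 null library than in every P3 WT library, against 1.3% of all genes, and 0 members were lower in every one, against 1.27%. Its levels were 0.641, 0.212 and 0.492 CPM in P3 Krt9 null, against 0.193, 0.0241, 0.159, 0.0997 and 0 CPM in P3 WT, from 7 to 23 counts per Krt9 null library (log2 fold change 2.50, SE 0.954, adjusted p = 0.705). Ucp1 passed the low-count filter only through P3 Krt9 null libraries, so this separation and its p are not independent of that filter.

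Dgat2 was at 307.5, 110.8 and 273.8 CPM in the P3 Krt9 null libraries, against 180.9, 102.5, 126.5, 91.0 and 128.8 CPM in the P3 WT libraries (log2 fold change 0.98, SE 0.296, edgeR adjusted p = 0.694). Acsl1 was at 211.2, 91.2 and 192.4 CPM in P3 Krt9 null, against 137.5, 88.5, 94.4, 81.9 and 121.5 CPM in P3 WT (log2 fold change 0.71, SE 0.240, adjusted p = 0.694). For both genes P3 Krt9 null replicate 2 lay among the WT libraries and the other 2 above them. Both genes are also active in epidermis and sebaceous gland. The summed epithelial markers were 8929, 6615 and 8647 CPM in P3 Krt9 null and 6319 to 7874 CPM in P3 WT, and the summed sebaceous gland markers 689.6, 466.5 and 479.1 CPM in P3 Krt9 null and 339.8 to 574.8 CPM in P3 WT. Without P3 Krt9 null replicate 2, Dgat2 and Acsl1 were called higher (adjusted p = 0.0452 and 0.0407). Of all genes, 0.732% were then called higher and 0.189% lower. Within run A the log2 fold changes were 0.22 for Dgat2 and 0.096 for Acsl1, and within run B 0.93 and 0.65. Within run B, which left 1 residual degree of freedom, 8 of the 33 genes were called on P3, 4 higher and 4 lower, where 5.51% of all genes were called higher and 3.26% lower. Within run A 0 of the 32 tested were called. The part of epithelial cells, sebaceous gland and run in these differences was not tested. The genes that define adipocytes overlapped between the genotypes on P3, with log2 fold changes of -0.57 for Adipoq (SE 0.588), -0.27 for Plin1 (SE 0.673) and -0.56 for Cidec (SE 0.586).

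**Figure D4:**
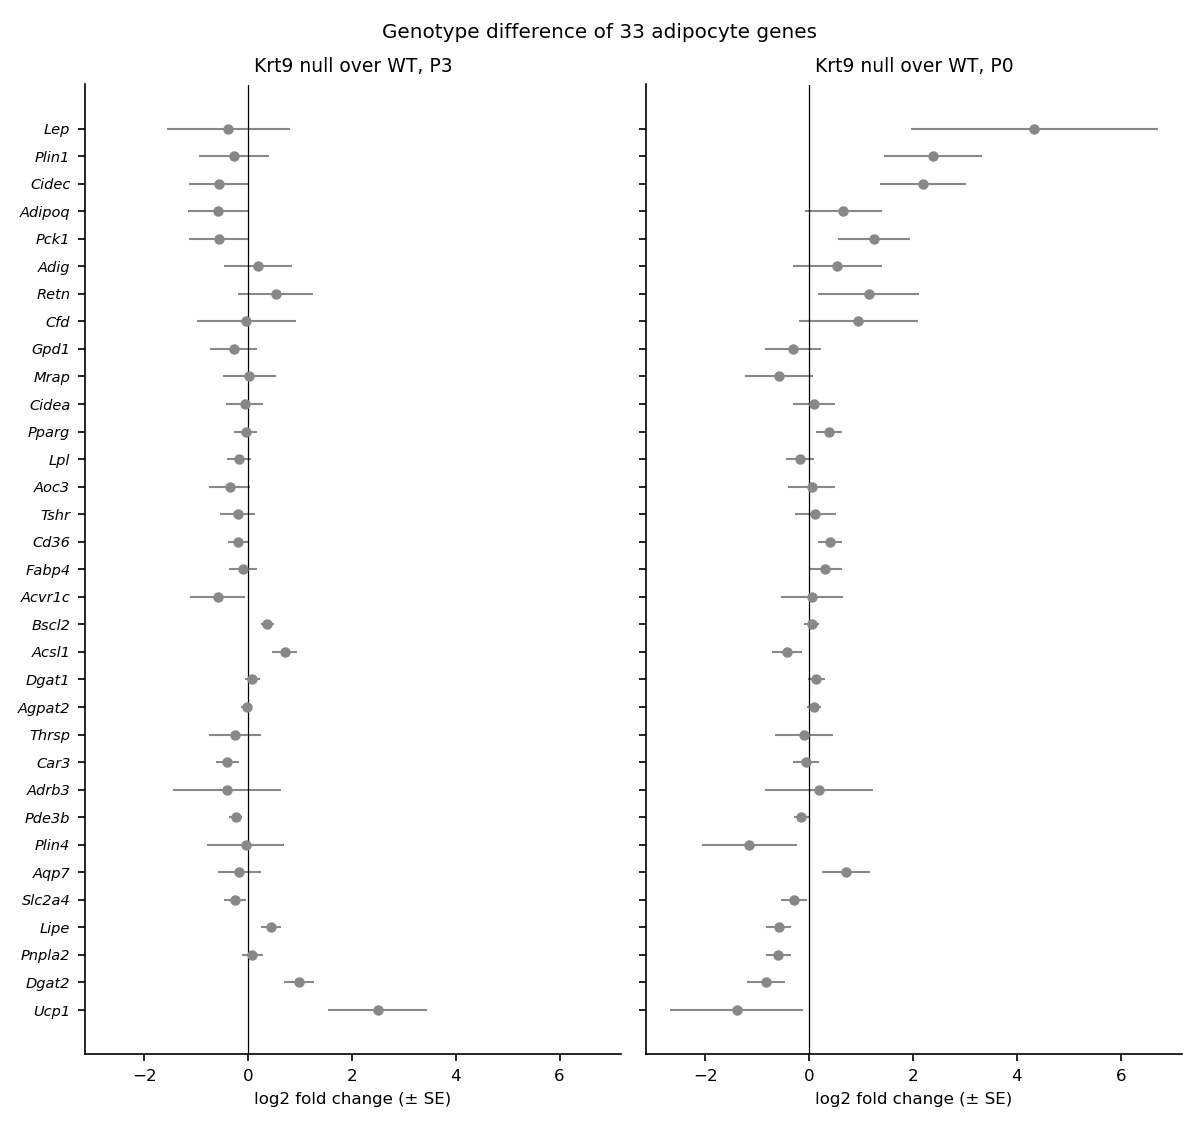
Log2 fold change of Krt9 null over WT with its SE for the 33 genes, on P3 (left) and P0 (right), in the order of the day plot. No gene was called, Ucp1 has the largest value on P3, at 2.50, and the fitted value of Lep on P0, which rests on 5 counts in 1 Krt9 null library and 0 in WT, is no bound. Ucp1 passed the low-count filter only through P3 Krt9 null libraries.

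On P0, 0 of the 33 genes were called between the genotypes by edgeR's quasi-likelihood test or by DESeq2, with a smallest adjusted p of 0.831, where again 0.00463% of all genes were called. An unadjusted p under 0.05 was found for 5 members, Plin1 and Cidec with the higher value in Krt9 null paws and Lipe, Pnpla2 and Dgat2 with the lower one, against 5.96% of all genes. The median log2 fold change was 0.087 over the 33 genes and -0.0039 over all genes. In 4 members both P0 Krt9 null libraries lay above every P0 WT library, against 6.47% of all genes, and in 1, Pde3b, both lay below, against 4.82%. Those 4 were Plin1, Cidec, Pck1 and Pparg. Plin1 was at 0.976 and 0.857 CPM in P0 Krt9 null, against 0, 0.602, 0 and 0.181 CPM in P0 WT (log2 fold change 2.38, SE 0.945, edgeR adjusted p = 0.831). Cidec was at 0.574 and 0.630 CPM in P0 Krt9 null, against 0 to 0.339 CPM in P0 WT (log2 fold change 2.19, SE 0.828, adjusted p = 0.831). Both genes were below 1 CPM in each of these libraries. Adipoq overlapped, at 0.918 and 1.99 CPM in P0 Krt9 null and 0.261 to 2.45 CPM in P0 WT. Without P0 WT replicate 4, 0 of the 33 genes were called on P0 as well, and 0 in the test of the day difference between genotypes, where 0.0141% and 0.221% of all genes were called.

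The test of whether the day difference itself depended on genotype called 0 of the 33 genes with edgeR's quasi-likelihood test, where 0% of all genes were called, and DESeq2 called Dgat2 (adjusted p = 0.0207), where it called 0.402% of all genes. At an unadjusted p under 0.05 there were 7 members, against 7.6% of all genes. Dgat2 had the smallest adjusted p, 0.437, with a log2 difference of 1.82 (SE 0.476). Its day fold change on the log2 scale was 1.08 in Krt9 null paws and -0.73 in WT paws. Lipe and Acsl1 had log2 differences of 1.03 (SE 0.314) and 1.13 (SE 0.382), and Plin1 and Cidec of -2.65 (SE 1.19) and -2.74 (SE 1.02). The WT day comparison and the P0 genotype comparison share the P0 WT libraries. Plin1 and Cidec were called in WT paws and not in Krt9 null paws. Their day changes are not shown to differ between genotypes, with edgeR adjusted p = 0.6445 and 0.5903 in the test of that difference. The 2 genotypes' day contrasts share no library.

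Except in P0 Krt9 null, libraries of a group differed in the same direction across many members. P3 Krt9 null replicate 2 held the highest level of its group for 19 of the 33 genes and replicate 3 the lowest for 23. In P3 WT, replicate 1 was highest for 17 genes and replicate 5 lowest for 18. In P0 WT, replicate 2 was highest for 20 and replicate 1 lowest for 19. In P0 Krt9 null, replicate 1 was highest for 16 and replicate 2 for 17. Such ranks were not counted over all genes, so these counts are not shown to be particular to the members. After subtracting group means, members were set against the mean standardised level of Adipoq, Plin1 and Cidec over the 14 libraries, which share depth and tissue makeup within each library. Pearson's r, given as a description, was 0.979 for Gpd1, 0.968 for Plin4, 0.859 for Lpl, 0.838 for Adig and 0.821 for Cfd. It was -0.488 for Bscl2, -0.255 for Acsl1 and -0.245 for Dgat2. These 3 had the lowest r, but other members were also weakly tied to the adipocyte markers within groups. Pearson's r was between -0.135 and 0.257 for Ucp1, Agpat2, Lipe, Adrb3 and Pparg, and 0.46 for Lep.

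Among 15516 genes that are no members and averaged at least 1 CPM, the 10 whose levels were most like those of Adipoq, Plin1 and Cidec in this sense were Mpo, Treml2, Tmem64, Atp7b, Elane, Eef1a2, Klf1, Pklr, Steap4 and Btnl10, with r between 0.934 and 0.878 over the 14 libraries. Mpo and Elane encode granule enzymes of maturing neutrophils, and Klf1 and Pklr act in red cell precursors. Both lineages grow in bone marrow. Steap4 encodes a metalloreductase of fat and other cells. With 5 markers of granulocyte precursors, listed after these values were seen and including Mpo and Elane, the summed level was 16.0, 40.2 and 7.16 CPM in P3 Krt9 null and 40.1, 30.2, 14.2, 32.7 and 14.3 CPM in P3 WT. It was 5.40 and 6.73 CPM in P0 Krt9 null, and 2.46, 15.5, 4.97 and 8.67 CPM in P0 WT. In each group the library lowest in these markers was also the lowest in the defining adipocyte genes or next to it. Mpo and Elane were picked by their likeness to the adipocyte genes, so this match is partly built in and is no separate result. The red cell precursor sum was 115 CPM in P0 WT replicate 1, the library lowest in the defining adipocyte genes, against 19.0 to 32.1 CPM in the other P0 WT libraries. In P0 Krt9 null it was 34.5 and 24.3 CPM, the reverse order of the adipocyte sums. In both P3 groups its lowest library was also lowest in the adipocyte sum or next to it. Of the 5 granulocyte precursor markers none was called between the days in WT paws, with a smallest adjusted p of 0.0822, and of 7 red cell precursor markers 5 rose, or 1 without P0 WT replicate 1 or 3. The part of such blood cell precursors in the values of the adipocyte genes was not tested.

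**Figure D5:**
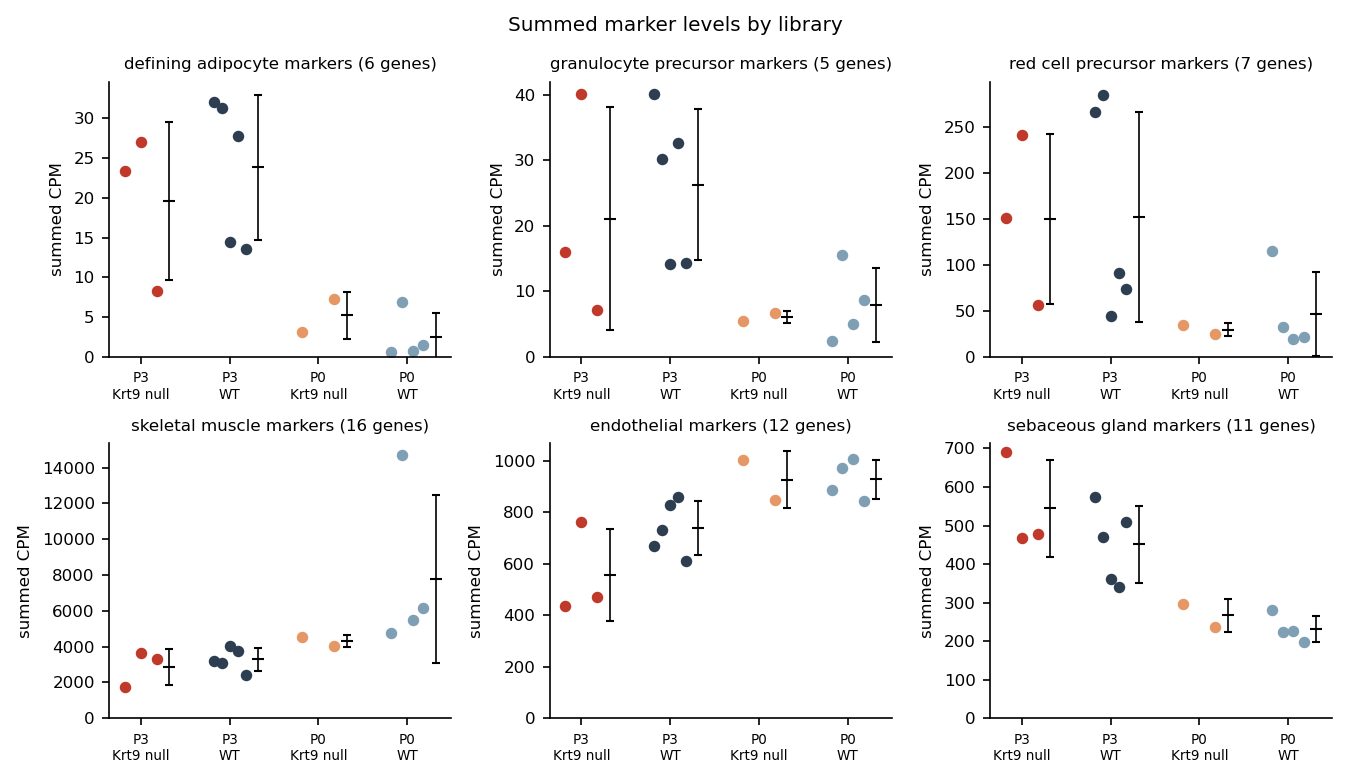
Summed level (CPM) of marker lists in each library, with 1 point per library in replicate order and the mean ± SD beside each group. The defining adipocyte, granulocyte precursor, red cell precursor and sebaceous gland markers average higher on P3, endothelial and skeletal muscle markers average higher on P0, and P0 WT replicate 2 stands apart in muscle at 14720 CPM.

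Other genes of the fat cell programme, taken from lists, moved in both directions in WT paws between the days. The counts below stand against 8.49% of all genes called higher and 8.07% lower in WT paws, and 0.338% and 0.43% in Krt9 null paws. With the litter number as a block, 0 of the 63 listed genes called in WT paws kept the call, with adjusted p between 0.115 and 0.989, and 0 of the 7 called in Krt9 null paws, between 0.847 and 0.878, while 0 of them changed direction. Among 14 adipocyte progenitor genes, 4 rose and 5 fell, with a median log2 fold change of -0.15. Dlk1, which holds preadipocytes undifferentiated, fell to 546.0 ± 197.5 CPM in P3 WT, against 1281 ± 190.8 CPM in P0 WT (log2 fold change -1.22, edgeR adjusted p = 0.00358). Wnt10b, an inhibitor of adipogenesis, and the progenitor receptor Pdgfra, also on the fibroblast list, fell too, with log2 fold changes of -0.53 and -0.50. Icam1 and Gata2 fell with -0.84 and -0.67. The surface protein Cd55 rose, with 0.73, as did Ly6a, Pi16 and Cd34, with 0.61, 0.44 and 0.40. In Krt9 null paws 0 of the 14 were called, and Dlk1 was at 439.7 ± 108.2 CPM in P3 Krt9 null and 1039 ± 24.4 CPM in P0 Krt9 null (log2 fold change -1.30, adjusted p = 0.0651). Without P0 WT replicate 3 only 1 of the 14 rose and 1 fell in WT paws. Of 18 regulators of adipogenesis, 1 rose and 2 fell, shares near those of all genes. Nr1h3, the sterol receptor LXRα, rose (log2 fold change 0.99), and Cebpd, an early factor, and Klf15, a later one, fell (log2 fold changes -1.40 each). Cebpa and Rxra, partners of Pparg, were not called in Krt9 null paws, at 199.7 ± 35.1 and 204.9 ± 19.5 CPM on P3 against 138.0 ± 27.3 and 185.3 ± 47.6 CPM on P0.

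Of 17 further droplet and lipolysis genes, 8 rose and 1 fell in WT paws with a median log2 fold change of 0.26. Plin2, the droplet coat of many cell types, rose to 75.2 ± 9.57 CPM in P3 WT, against 45.2 ± 10.5 CPM in P0 WT (log2 fold change 0.74, edgeR adjusted p = 0.00578). Lgals12, a lectin on adipocyte droplets, rose with a log2 fold change of 0.96, G0s2, the inhibitor of the lipase that Pnpla2 encodes, with 0.91, and Faah, which breaks down fatty acid amides, with 1.17. In Krt9 null paws Faah rose (log2 fold change 2.18, adjusted p = 0.0219), and the caveolar coat gene Cav1, also of endothelium, fell (log2 fold change -0.93, adjusted p = 0.0189). Both calls were lost without P3 Krt9 null replicate 1 or P0 Krt9 null replicate 2, and that of Faah also without P0 Krt9 null replicate 1. With 1 library left out, the count of the 17 that rose in WT paws was lowest without P0 WT replicate 3, at 3. Of 19 genes of fatty acid uptake and triglyceride assembly, 1 rose and 2 fell in WT paws. Angptl4, an inhibitor of lipoprotein lipase, rose to 62.3 ± 7.77 CPM in P3 WT, against 14.5 ± 8.78 CPM in P0 WT (log2 fold change 2.07, adjusted p = 0.011), and the channel Aqp3 and the lipoprotein receptor Vldlr fell.

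Of 16 brown adipocyte genes that passed the filter, 3 rose and 0 fell in WT paws. Elovl3, which elongates fatty acids in brown fat and is also on the sebaceous gland list, rose to 18.9 ± 11.8 CPM in P3 WT, against 0.962 ± 0.440 CPM in P0 WT (log2 fold change 4.20, edgeR adjusted p = 0.00154). Dio2, which activates thyroid hormone, and Pank1, of coenzyme A synthesis, rose with log2 fold changes of 1.22 and 0.66. Of 11 sebaceous gland markers 6 rose in WT paws, and their summed level was 339.8 to 574.8 CPM in P3 WT and 197.8 to 280.5 CPM in P0 WT, so the part of sebaceous gland in the rise of Elovl3 and in the level of Cidea was not tested. Of 19 insulin and adrenergic signalling genes 2 rose and 3 fell in WT paws. The lactate receptor Hcar1, which restrains lipolysis, rose to 1.43 ± 0.584 CPM in P3 WT, against 0.182 ± 0.0999 CPM in P0 WT (log2 fold change 2.92, adjusted p = 0.00359), and Prkar2b, a regulatory subunit of protein kinase A, rose with 0.68. The insulin receptor Insr and its adaptor Irs2 fell, with log2 fold changes of -0.57 and -1.39.

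Of 16 other adipokines and receptors 2 rose, Ccn5 and the complement component C3, and 1 fell, Nnat. In Krt9 null paws the brown, insulin and adrenergic, adipokine, regulator and uptake lists held 0 called genes between the days. In the genotype comparisons on P3 and P0 and in the test of the day difference between genotypes, 0 genes of these lists were called by edgeR's quasi-likelihood test. Lists of other cells moved too. Of 12 endothelial markers 2 fell in WT paws, and 3, Pecam1, Esam and Emcn, fell in Krt9 null paws, with a summed level of 434.7 to 763.2 CPM in P3 Krt9 null, 608.9 to 857.4 CPM in P3 WT, 847.2 to 1003 CPM in P0 Krt9 null and 841.9 to 1008 CPM in P0 WT. Without any one of P0 WT replicates 1, 2 and 3, 0 endothelial markers were called in WT paws, and in Krt9 null paws 8 fell without P3 Krt9 null replicate 2 and 0 without replicate 1 or 3. Cd36, Fabp4 and Lpl, which endothelium or muscle also use, were measured in the same libraries, and the part of those cells in their levels was not tested. Of 11 macrophage markers 6 rose in WT paws, among them Adgre1 and Mrc1. In the same paws 4 of 12 epithelial markers and 2 of 9 fibroblast markers fell.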

How the data were processed

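RNA of whole paws was measured in 14 libraries. The authors deposited raw read counts per gene, made with STAR 2.7.10a and featureCounts on GRCm39, per the submitters' processing notes, which also name edgeR and limma. Filters and the strand setting were not found in the sources used here, so reads of overlapping antisense genes cannot be told apart. By GENCODE M21 exons, 25 of the 33 genes overlap no other gene, and the overlap was 15.6% of Lipe, 13% of Gpd1, 10.8% of Bscl2, 9.91% of Acsl1 and 24.9% of Adrb3. Of 56691 IDs, 52073 matched a symbol there, and the rest held 0.623% of counts and stayed in. Its build is not that of the alignment, so coordinates are given for RefSeq promoters alone.

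Genes were kept by filterByExpr and scaled by TMM. Lep and Adig passed this filter only through P3 libraries, and Ucp1 only through P3 Krt9 null libraries. One edgeR 4.0.16 robust quasi-likelihood fit (R 4.3.3) over all libraries had a term per group and labelled sex as covariate, with 9 residual degrees of freedom. P-values were adjusted by Benjamini-Hochberg over 21619 genes and called under 0.05. The script was tested on simulated data. A litter number is given by the labels, which do not say whether it marks the same litter on both days. Libraries of 1 number in different groups had correlations of deviations from group means between -0.0366 and 0.0769, and the text gives the blocked fit for the members and once for all lists. P-values measure the spread between libraries, some from 1 litter.

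The members and lists were chosen with earlier results of these data known, and the 2 blood cell precursor lists after these values were seen. Library values are given for called genes, for Adipoq, Plin1, Cidec, Lep, Pparg, Ucp1 and Cidea, and for genes at 0 or 1 count in a group, and those of Retn, Cfd, Dgat2, Acsl1, Bscl2 and Plin4 were added after they were seen. Listed genes were named from up to 4 called with the smallest adjusted p, or from the 2 most abundant. The other called progenitor genes were added after they were seen. Alternatives were DESeq2 1.42.0 size factors, library size only, no filter or 1 CPM in 4 libraries, the DESeq2 test, limma 3.58.1 voom, no sex term, only the groups compared, litter as block, column run as a term or alone, and each library left out. Figures used Python 3.11.15 and matplotlib 3.10.9.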

Additional observations from a re-analysis of the deposited data

Results flagged for a closer look

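In 5 of the 66 groups of 4 or 5 libraries, counted over the 33 genes, 1 library stood apart from the rest of its group by a Dixon test at 95%, where chance gives about 1 in 20 such groups. Lipe was lowest in P3 WT replicate 5 at 10.5 CPM, with the next library at 14.9 CPM. Retn was highest in P3 WT replicate 1 at 1.51 CPM, with the next at 0.664 CPM. In P0 WT, replicate 2 was highest for 3 genes: Adig at 0.376 CPM, with the next library at 0.0715 CPM, Cfd at 3.23 CPM, with the next at 0.314 CPM, and Plin4 at 24.7 CPM, with the next at 4.84 CPM. That library also held the highest sum of skeletal muscle markers.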

How the results depend on the processing

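No fold change of a called gene changed sign under any alternative run. In WT paws the 8 genes called higher became 15 with no low-count filter, where 6.17% of all genes were called higher. With litter as a replicate block they became 0, where 0.00463% were. With 1 library left out they became 4 to 9, where 4.16% to 10% were. The 1 called lower became 2 with no filter, the DESeq2 test, only the groups compared and the column run as a term. Of all genes, 5.24%, 10.2%, 9.49% and 13.2% were called lower there. With the litter block it became 0, where 0.00925% were. With 1 library left out it became 0 to 3, where 3.33% to 9.95% were. In Krt9 null paws the 0 called higher became 1 by library size only and with the run term, where 0.393% and 2.08% of all genes were called higher. They became 7 with no filter and 3 with DESeq2, where 3.02% and 2.91% were. With 1 library left out they became 0 to 3, where 0% to 1.78% were. The count called lower stayed at 0 in these settings. Between genotypes on P3 the 0 calls became 2 with no filter, where 1.71% of all genes were called. With 1 library left out they became 0 to 2, where 0.00435% to 0.921% were. On P0 they became 3 with no filter, 1 within run A and 3 within run B, and for the day difference between genotypes 4 with no filter, 1 with DESeq2 and 6 within run B. The litter block left 2 residual degrees of freedom, run A 3 and run B 1. Run A holds 1 Krt9 null library of each day, and run B holds 1 P0 library of each genotype. Counts of calls within a run alone are therefore not listed here. The cause of the other moves was not tested. Library size only moved the median log2 fold change of all genes in WT paws to 0.104, with 2376 genes higher and 1062 lower, against 1836 and 1745 with TMM. The litter block also left 1 gene higher and 2 lower of all genes in WT paws, 0 and 0 in Krt9 null paws, against 73 and 93, and 0 in both genotype comparisons, against 1 in each. With 1 CPM in 4 libraries Lep and Adig were not tested in WT paws, and with only the groups compared Lep and Ucp1 were not. Genes near 0, such as Lep, Ucp1 and Adrb3, are limited by depth.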
